A study of Mus musculus with 14 samples.

Results

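A set of 10 genes known for their expression in fat cells was followed in the lactating mammary gland of the mouse, namely *Adipoq*, *Lep*, *Retn*, *Cfd*, *Fabp4*, *Plin1*, *Plin4*, *Cidec*, *Lipe* and *Pparg*. They were chosen by name, with earlier results of these data known, and are 10 of the 20515 genes with a usable symbol. The RNA came from whole mammary tissue on day 10 of lactation (L10) of 2 wt/Wap-Tbrg4 mice, here called replicate 1 and replicate 2. These mice carry a wild-type allele and an allele in which a deletion made with CRISPR-Cas9 joins the super-enhancer and promoter of the milk protein gene *Wap* to the neighbouring gene *Tbrg4*. Genotype and stage do not differ between them, and no RNA-seq of wild-type mice was analysed here, so no effect of the allele or of lactation can be measured. The other 12 samples of the series are ChIP-seq samples and were not used. All levels are the deposited FPKM, fragments scaled to exon or intron length, so they are per length and can be compared between genes. How the authors scaled the 2 libraries to each other is not stated in the sources used here. On the deposited scale the 2 mice do not share the same total.

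White adipocytes make up much of the mammary fat pad before pregnancy. They store triglyceride in a single large droplet coated by perilipins and CIDE proteins, release it by lipolysis, and secrete hormones called adipokines. During pregnancy and lactation the secretory epithelium fills the fat pad and the adipocytes lose much of their lipid. In bulk tissue, fewer adipocytes and less RNA per adipocyte cannot be told apart.

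The members lie on 7 chromosomes of GRCm38 (mm10), and none had a second copy of its coding sequence in that genome. *Fabp4* is at chr3:10204342-10208616 and *Plin1* at chr7:79721164-79732776, both on the minus strand. They are the members with the lowest and the highest GC content over their exons, 43.7% and 61.3%, and their coding sequences have 48.4% and 62.9%. A stretch of 90 coding bases of each is shown, with G and C in capitals, because the ratio between the mice is set against GC content further on. Each stretch opens a coding exon and was taken as the one nearest in GC content to the exons of the gene. This rule was the one kept of 4 that were looked at, so the stretches illustrate base composition and carry no result. The *Fabp4* stretch is chr3:10205253-10205342 with 47 G or C bases (52.2%), richer in GC than the gene as a whole, and the *Plin1* stretch is chr7:79725715-79725804 with 55 (61.1%). Both are read from the minus strand, 5′ to 3′, from the RefSeq assembly GRCm38.
Fabp4: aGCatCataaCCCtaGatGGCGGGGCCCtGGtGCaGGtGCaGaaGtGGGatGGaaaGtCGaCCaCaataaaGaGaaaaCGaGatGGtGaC
Plin1: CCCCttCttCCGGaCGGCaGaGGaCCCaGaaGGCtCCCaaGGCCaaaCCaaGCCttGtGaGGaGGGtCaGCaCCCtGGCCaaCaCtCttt

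All 10 adipocyte genes had an exon FPKM of at least 1 in both mice. Of all genes, 45.6% did. Added together, their exons reached 1386.6 FPKM in replicate 1 and 1212.3 FPKM in replicate 2, or 1299 ± 123 (mean ± SD, n = 2). *Cfd* and *Fabp4* held 86.1% of this sum in replicate 1 and 82.5% in replicate 2, and the other 8 genes together reached 192.9 and 211.8 FPKM. The sum was 0.163% of all exon FPKM in replicate 1 and 0.0678% in replicate 2. Milk protein genes set that total, which was 852961 and 1788119 FPKM. Without the 10 genes highest by mean, the adipocyte genes made up 0.793% and 0.719%.

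**Figure D1:**
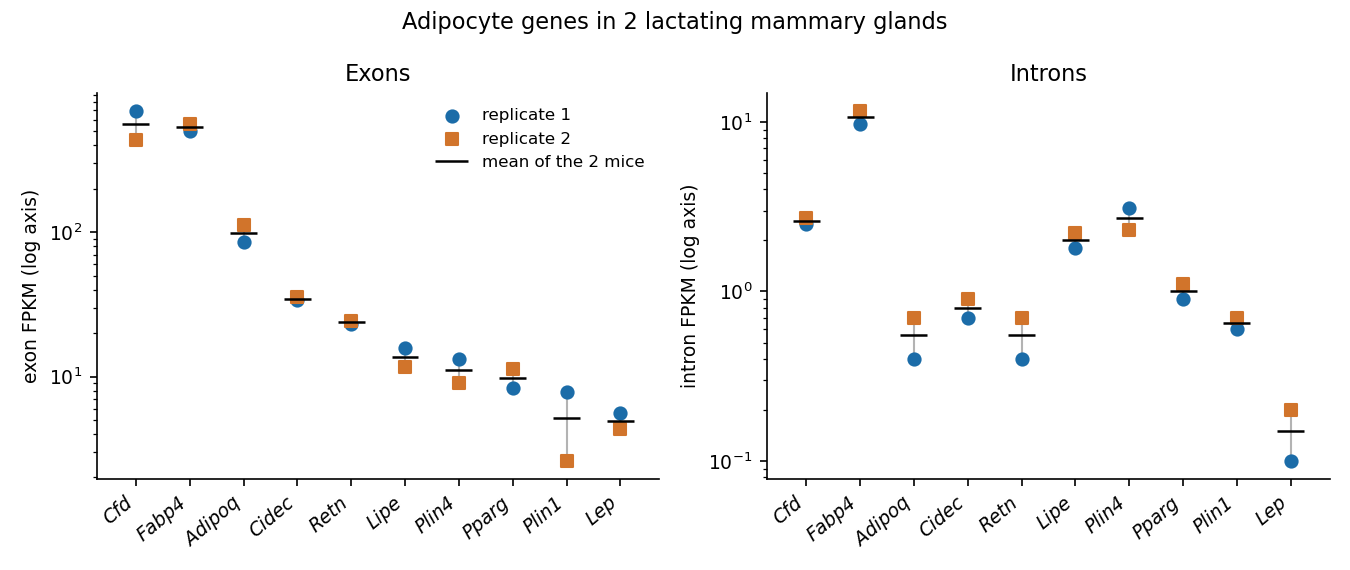
Exon FPKM (left) and intron FPKM (right) of the 10 adipocyte genes in the 2 wt/Wap-Tbrg4 mice at L10, on log axes. Circles are replicate 1, squares replicate 2 and bars the mean. Exon levels run from 564 FPKM for *Cfd* to 4.95 FPKM for *Lep*, and *Plin1* has the widest gap between the mice.

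Among the adipokines, *Cfd* (chr10:79890853-79892655, plus strand) was highest. It encodes adipsin, or complement factor D, a protease of the alternative complement pathway. Its exons had 692 FPKM in replicate 1 and 436.5 FPKM in replicate 2 (564 ± 181, SD, n = 2), which placed it at rank 36 of 20515 genes. *Adipoq* (chr16:23146536-23157968, plus strand) encodes adiponectin, a hormone that raises insulin sensitivity. It had 85.3 and 113 FPKM (99.2 ± 19.6) and rank 212. *Retn* (chr8:3655770-3659818, plus strand), which encodes resistin, had 23.1 and 24.4 FPKM (23.8 ± 0.919), with little difference between the mice. *Lep* (chr6:29060221-29073876, plus strand) encodes leptin, which signals the size of fat stores to the brain, and was the lowest member, with 5.6 and 4.3 FPKM (4.95 ± 0.919) and rank 5444. *Adipoq* exceeded *Lep* 15.2-fold in replicate 1 and 26.3-fold in replicate 2.

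The receptors and partners of these adipokines were measured as well. The adiponectin receptor genes *Adipor1* (36.6 and 43.4 FPKM) and *Adipor2* (30.9 and 32.4 FPKM) were close to each other, and *Cdh13*, which encodes T-cadherin, a surface protein that binds adiponectin, had 4.2 and 3.5 FPKM. The leptin receptor gene *Lepr* had only 0.1 and 0.2 FPKM, at or near the rounding step of 0.1 FPKM. The complement genes *C3* and *Cfb*, whose products act with adipsin, had 28.2 and 32.0 FPKM and 4.5 and 3.2 FPKM. Of these 6 genes, 5 had at least 1 FPKM in both mice.

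*Fabp4* encodes the adipocyte fatty acid-binding protein, which carries fatty acids in the cytoplasm. It had 501.7 FPKM in replicate 1 and 564 FPKM in replicate 2 (533 ± 44.1, SD, n = 2) and rank 39. Its values lay between the *Cfd* values, so the order of these top members is not separated by the spread. Endothelial cells and macrophages also express *Fabp4*. The 5 endothelial markers summed to 51.9 and 46 FPKM and all reached 1 FPKM in both mice, with *Cdh5* highest (17.3 and 17.4 FPKM) and *Emcn* lowest (1.4 and 2.3 FPKM). The 5 macrophage markers summed to 83.7 and 42 FPKM, also all at 1 FPKM or more, with *C1qa* highest (44.8 and 19.6 FPKM) and *Cd68* lowest (2.6 and 1.9 FPKM). Their part in the *Fabp4* level was not tested. The heart-type relative *Fabp3*, which the secretory epithelium expresses, exceeded *Fabp4* 7.52-fold in replicate 1 and 5.46-fold in replicate 2.

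The droplet coat genes were lower. *Cidec* (chr6:113424634-113435760, minus strand), whose product promotes the fusion of droplets into a single large one, had 33.7 and 35.6 FPKM (34.7 ± 1.34, SD, n = 2). *Plin4* (chr17:56100587-56109782, minus strand), a perilipin of small nascent droplets, had 13.2 and 9.0 FPKM (11.1 ± 2.97). *Plin1*, which encodes perilipin 1, the coat protein that gates lipolysis in adipocytes, had 7.8 and 2.6 FPKM (5.2 ± 3.68). The *Plin1* level was 3-fold higher in replicate 1, the widest gap among the members. *Cidec* differed little between the same mice.

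Of the perilipin and CIDE relatives, *Plin2* and *Cidea* were far above the droplet coat members *Cidec*, *Plin4* and *Plin1*. By mean, *Plin3* lay between *Plin4* and *Cidec*, and *Plin5* and *Cideb* were far below all of these members. *Plin2*, the perilipin of droplets in most cells including milk-secreting cells, had 788.1 and 551.5 FPKM, 101-fold and 212-fold above *Plin1*. *Cidea*, a CIDE gene known from brown fat and from milk lipid secretion, had 1865.1 and 1483.9 FPKM, 55.3-fold and 41.7-fold above *Cidec*. The excess of *Plin2* over *Plin4* was nearly the same in both mice, 59.7-fold and 61.3-fold. *Plin3*, a widely expressed perilipin, had 27.7 and 15.4 FPKM. *Plin5*, the perilipin of oxidative tissues, had 0.1 FPKM in both mice, and *Cideb*, the liver member of the CIDE family, had 0.2 and 0.3 FPKM. Of the genes for droplet formation, *Fitm2* had 16.1 and 16.9 FPKM, *Bscl2* (seipin) had 18.5 and 14.3 FPKM, and *Fitm1* was listed at 0 in both mice.

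**Figure D2:**
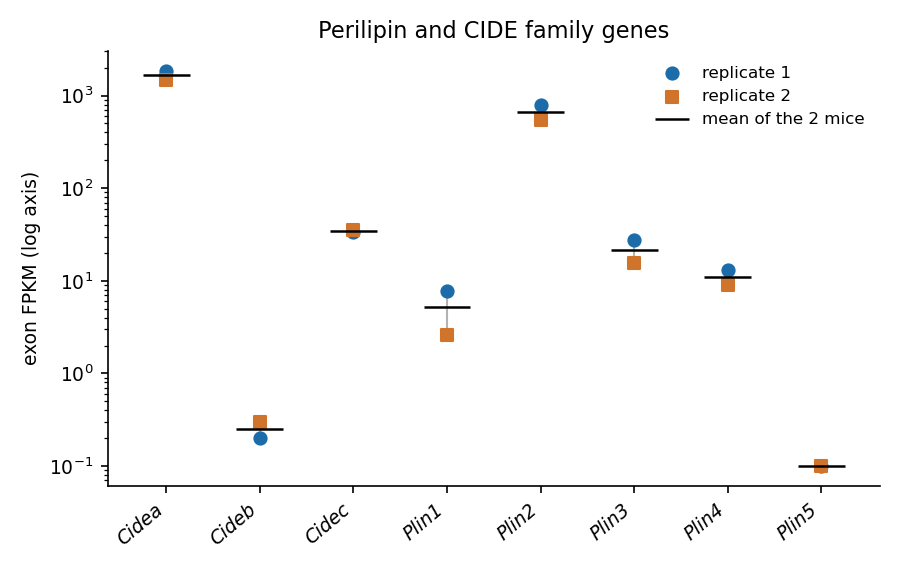
Exon FPKM of the perilipin and CIDE family genes in the 2 mice, on a log axis, with circles for replicate 1, squares for replicate 2 and bars for the mean. *Cidea* (1675 FPKM) and *Plin2* (670 FPKM) stand above the adipocyte forms *Cidec* (34.7), *Plin4* (11.1) and *Plin1* (5.2).

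*Lipe* (chr7:25379527-25395987, minus strand) encodes hormone-sensitive lipase, which splits diglyceride during lipolysis. It had 15.8 and 11.6 FPKM (13.7 ± 2.97, SD, n = 2). Of 6 partners in the pathway, 3 lay above it in both mice. *Pnpla2*, which encodes the lipase of the first step, had 32.3 and 38.5 FPKM, and its activator gene *Abhd5* had 134.6 and 154.2 FPKM. *G0s2*, which encodes an inhibitor of that lipase, had 1202.5 and 453.3 FPKM, 76.1-fold and 39.1-fold above *Lipe*. The monoglyceride lipase gene *Mgll* (13.7 and 10.7 FPKM) lay near *Lipe*. The hormone-signalling genes *Pde3b* (2.7 and 4.2 FPKM) and *Prkar2b* (4.2 and 7.4 FPKM) lay below it. All 6 partners had at least 1 FPKM in both mice.

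*Pparg* (chr6:115360951-115490401, plus strand) encodes the nuclear receptor that drives adipocyte differentiation and is also present in other cells of the gland. It had 8.4 and 11.3 FPKM (9.85 ± 2.05, SD, n = 2). *Rxra*, which encodes its heterodimer partner, had 22.7 and 13.5 FPKM, so *Pparg* was 0.370 of *Rxra* in replicate 1 and 0.837 in replicate 2. The adipogenic factor genes *Klf15* (30.7 and 17.9 FPKM), *Ebf1* (1.8 FPKM in both mice) and *Ebf2* (0.7 and 0.9 FPKM) spanned a wide range. *Cebpa*, *Cebpb* and *Cebpd* were not analysed here.

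By mean exon FPKM the order was *Cfd*, *Fabp4*, *Adipoq*, *Cidec*, *Retn*, *Lipe*, *Plin4*, *Pparg*, *Plin1* and *Lep*. The ranges of the 2 mice overlapped between *Cfd* and *Fabp4*, between *Lipe* and *Plin4*, between *Plin4* and *Pparg*, and between *Plin1* and *Lep*. The other neighbours had separate ranges. With 2 mice this is a description of these animals and no test was made.

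To compare the animals, exon FPKM + 1 in replicate 2 was divided by that in replicate 1 and put on the log2 scale. Of the adipocyte genes, 5 were higher in replicate 2 and 5 were lower, where 55.4% of the 9845 genes that averaged 1 exon FPKM or more were lower. The median log2 ratio was −0.12 for the adipocyte genes and −0.076 for all these genes. *Adipoq* (0.40), *Pparg* (0.39), *Fabp4* (0.17), *Retn* (0.076) and *Cidec* (0.077) were the higher genes. *Lep* (−0.32), *Lipe* (−0.42), *Plin4* (−0.51), *Cfd* (−0.66) and *Plin1* (−1.29) were the lower ones. *Plin1* was the 1 member more than 2-fold lower in replicate 2, as were 4.82% of all genes, and no member was more than 2-fold higher, as were 1.08%. On this deposited scale, whose adjustment between the mice is not stated, the adipocyte genes lay on both sides of 0. With each mouse rescaled to the same summed exon FPKM, a sum that milk protein genes dominate, all 10 were lower in replicate 2, with a median log2 ratio of −1.05.

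These ratios moved with the GC content of the exons. Over 9725 genes with a GC value, the Spearman correlation of exon GC content and log2 ratio was −0.66, and over the 10 adipocyte genes it was −0.77. Both are descriptions across genes, which share the same 2 libraries. The median log2 ratio fell from 0.26 in genes with 40 to 45% GC to −0.81 in genes with 60 to 65% GC. *Fabp4*, at 43.7% GC, and *Plin1*, at 61.3% GC, whose coding stretches are printed above, lay at the ends of the GC range of the members. By log2 ratio *Plin1* (−1.29) was the lowest member, but *Adipoq* (0.40) and *Pparg* (0.39) lay above *Fabp4* (0.17). *Cidec* had a ratio above 0 at 56.4% GC, where the median of all genes with 55 to 60% GC was −0.53.

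**Figure D3:**
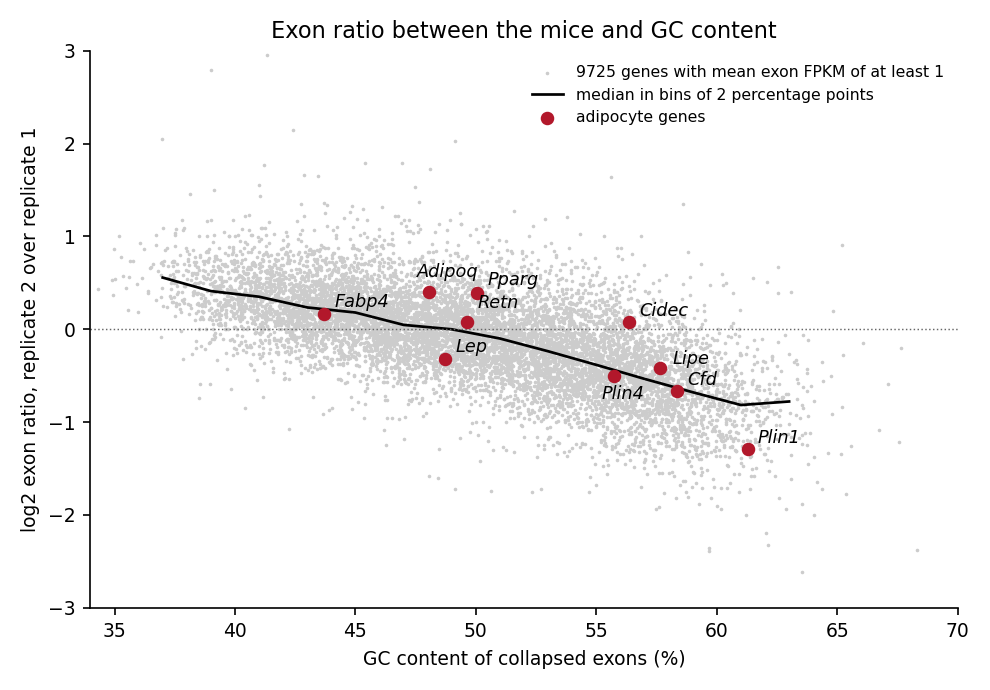
Log2 exon ratio of replicate 2 over replicate 1 against GC content of the exons (%). Grey points are 9725 genes, the line is their median in bins of 2 percentage points and red points are the adipocyte genes. *Plin1* and *Lep* lie below the line and *Cidec*, *Adipoq* and *Pparg* above it.

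When the relation to GC content over all genes was removed with a lowess fit, the *Plin1* log2 ratio became −0.54 and no adipocyte gene was more than 2-fold apart. *Cfd* moved to −0.10 and *Plin4* to −0.16. *Fabp4* changed sign to −0.13, *Lipe* changed sign to 0.090, and *Cidec* rose to 0.48. The correction keeps the median of all genes, which was −0.075 afterwards. Against all genes, *Cfd* lay at percentile 46.5 and *Fabp4* at percentile 43.0. The members ran from percentile 9.51 for *Plin1* and 18.3 for *Lep* to 85.2 for *Adipoq*, 88.3 for *Pparg* and 92.5 for *Cidec*. The SD of the 10 ratios went from 0.53 to 0.33, and over all genes it went from 0.51 to 0.39. *Adipoq* (0.30), *Pparg* (0.37) and *Lep* (−0.39) changed little. What gives the relation to GC content was not tested.

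Intron reads come largely from unspliced RNA and give a second reading of each gene. Intron FPKM were low and rounded to 0.1, so single steps weigh heavily. *Fabp4* had the highest intron level, 9.7 FPKM in replicate 1 and 11.6 FPKM in replicate 2. *Plin4* had 3.1 and 2.3, *Cfd* 2.5 and 2.7, and *Lipe* 1.8 and 2.2 intron FPKM. The other members had 1.1 or less, down to 0.1 and 0.2 for *Lep*.

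Introns were higher in replicate 2 for 9 of the 10 adipocyte genes, of which *Lep* and *Plin1* differed by a single step of 0.1. Of 11506 genes compared by intron FPKM, 36.2% were higher in replicate 2, 33.4% were lower and 30.4% were equal. Among genes that averaged 0.5 intron FPKM or more, 42.8% were higher. The median log2 intron ratio, with a pseudocount of 0.1, was 0.27 for the adipocyte genes and 0 for all genes. *Plin4* was the member with a lower intron level in replicate 2. In *Lep*, *Cfd*, *Plin1* and *Lipe*, exons were lower and introns higher in replicate 2, a pattern seen in 16.0% of genes compared for both.

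**Figure D4:**
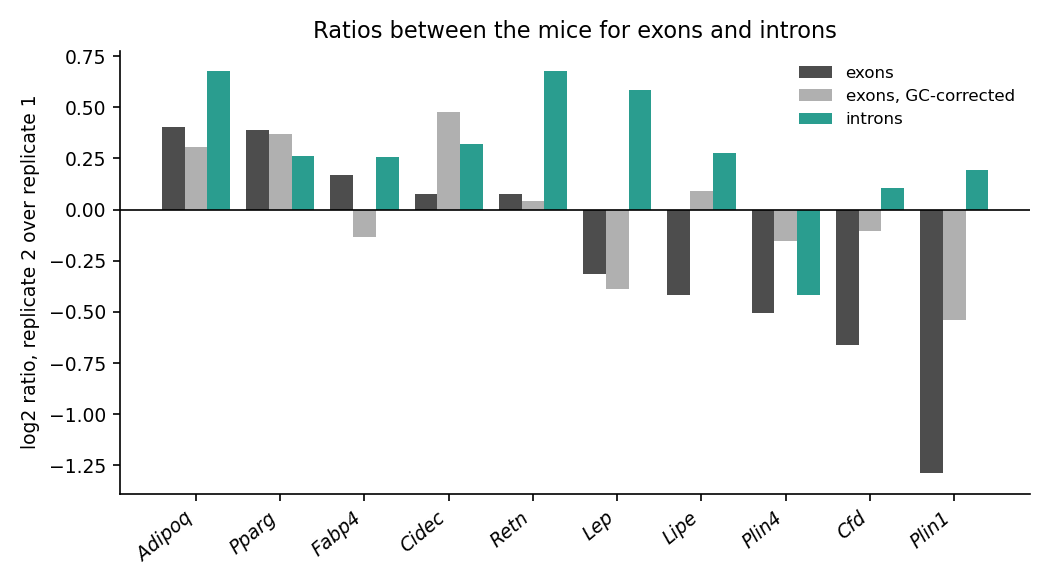
Log2 ratio of replicate 2 over replicate 1 for exons, for exons after GC correction and for introns of each adipocyte gene. Intron bars lie above 0 for 9 genes and below it for *Plin4*, whereas exon bars lie above 0 for 5 genes.

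The share of intron signal differed among members. Mean intron FPKM was 24.3% of mean exon FPKM for *Plin4*, 14.6% for *Lipe*, 12.5% for *Plin1* and 10.2% for *Pparg*, compared with a median of 6.12% over 9363 genes. It was lowest for *Cfd* (0.461%) and *Adipoq* (0.555%). For *Plin1* it was 7.69% in replicate 1 and 26.9% in replicate 2, since the exon level differed and the intron level hardly did. *Lipe* lies wholly within the antisense noncoding gene *4732471J01Rik*, *Cidec* shares 1256 bp with the antisense noncoding gene *Gm52871*, and *Plin4* shares 19 bp with *Hdgfl2*. The *Plin4* overlap lies at the outer edge of that gene. The library kit keeps strand, but whether counting used it is not stated. Within these overlaps, antisense reads therefore cannot be told apart from those of the 3 genes.

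Other adipocyte-enriched genes gave a similar spread. Of 10 further genes, 9 had at least 1 FPKM in both mice, with a summed level of 346.1 and 365.6 FPKM and a median log2 ratio of −0.22 (−0.18 after GC correction). *Car3*, a carbonic anhydrase abundant in fat, was highest, with 149.9 and 244.5 FPKM. *Rbp4*, which encodes the retinol carrier made by liver and fat, was listed at 0 in both mice. The 8 lipid genes shared by adipocytes and secretory epithelium all had at least 1 FPKM, summed to 7396.1 and 6309.6 FPKM and had a median log2 ratio of −0.14, which changed sign to 0.063 after GC correction. They ran from *Fabp3* (3771.2 and 3078.1 FPKM) down to *Dgat2* (10.1 and 10.4 FPKM).

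On the deposited scale, markers of the epithelium differed in both directions between the same mice. *Wap* had 172935 and 234774 FPKM, 2027-fold and 2078-fold above *Adipoq*, and *Csn2* had 108555 and 481937 FPKM. In the paper the deletion fuses the first exons of *Wap* and *Tbrg4*, so an intact *Wap* gene remains only on the wild-type allele. The 7 milk protein genes had a median log2 ratio of 1.56 (1.14 after GC correction). Of the 6 luminal genes, 4 were lower in replicate 2, the keratin genes *Krt8* (31.4 and 14.6 FPKM), *Krt18* (145 and 57.6 FPKM) and *Krt19* (10.9 and 4.0 FPKM) and, by less, *Epcam* (134 and 112 FPKM). The other 2, *Cdh1* (12.1 and 14.6 FPKM) and *Elf5* (185.8 and 204.8 FPKM), were higher. *Epcam* and *Cdh1* were named after their values were seen. The part of these shifts in the adipocyte ratios was not tested.

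**Figure D5:**
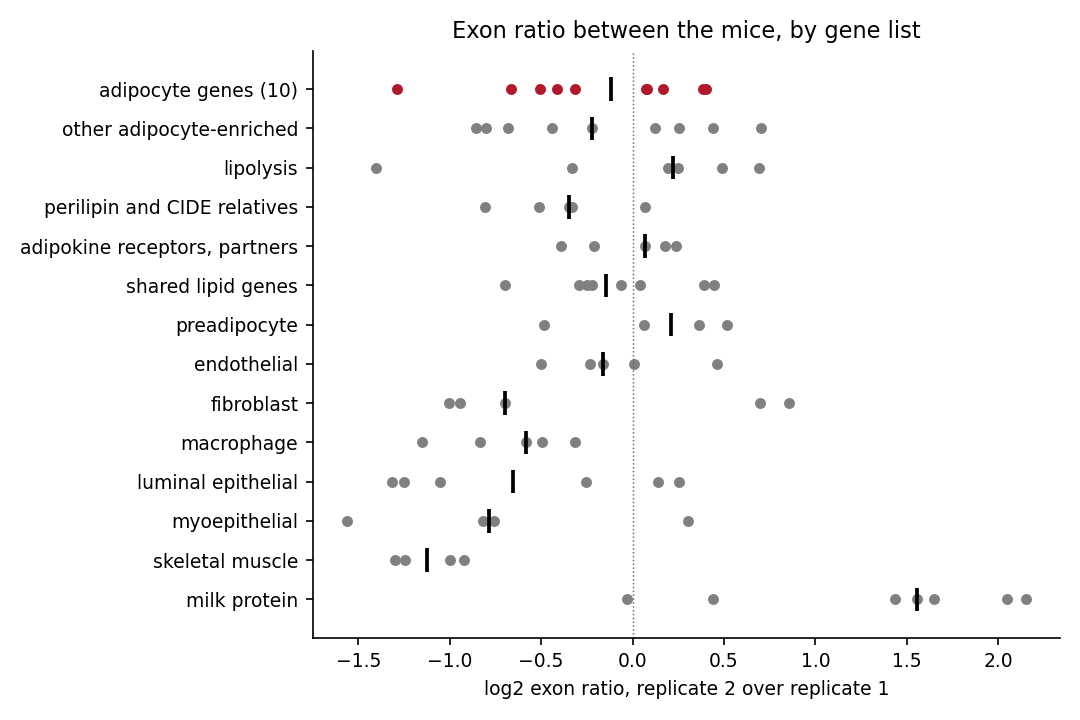
Log2 exon ratio of replicate 2 over replicate 1 for each gene averaging 1 exon FPKM or more, by gene list and on the deposited scale, with a bar at the median. The adipocyte genes (red) lie on both sides of 0 with a median of −0.12, and the milk protein genes have a median of 1.56.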

How the data were processed

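Total RNA-seq of 2 wt/Wap-Tbrg4 mammary glands at L10 was analysed. The authors prepared the libraries with a stranded total RNA kit, mapped reads to mm10 with STAR, counted exons and introns with HTSeq and made FPKM with DESeq2. Tool versions are not given in the sources used here. The deposited FPKM have 1 decimal and no read counts, so depth is unknown and precision rests on the 2 mice. Labels call the samples replicates 1 and 2 of the same genotype, and no test or p-value is given.

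Of 20550 listed genes, 35 without a usable symbol were left out. Exon and intron GC content, positions and coding sequences came from curated RefSeq transcripts on GRCm38, matched for 98.2% of genes. The printed 90-base stretches were set by the rule kept of 4 that were looked at, after other stretches had been seen. A version with shorter stretches was dropped because it had been tried for its stronger contrast. Log2 ratios used FPKM + 1 for exons, over genes with a mean of at least 1, and FPKM + 0.1 for introns. The GC correction was a lowess fit over 30% of genes (statsmodels 0.14.6). It was tried on simulated ratios with a smooth GC gradient, which such a fit removes by design. That trial checks the code and cannot show that the corrected ratios of these data are right. Copies were searched with minimap2 2.31 at a coverage of at least 50% and an identity of at least 95%. Python 3.11.15, pandas 2.3.3 and scipy 1.17.1 were used.

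The members and gene lists were chosen with earlier results of these data known. All members are named, and of other lists the highest and lowest gene by mean exon FPKM, every perilipin and CIDE relative, adipogenic factor, adipokine receptor and lipolysis gene, and *Wap*, *Csn2*, *Krt8* and *Krt18*. Alternatives changed scaling, pseudocount, filter, GC correction and the mice included.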

Additional observations from a re-analysis of the deposited data

How the results depend on the processing

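Of 159 alternative values, 116 moved by less than the spread between the mice or a preset tolerance, and 43 moved by more. These counts do not measure robustness. Leaving out 1 mouse always moves a mean of 2 values by less than their SD, so those alternatives could not count as moved. Centring on the median of all genes shifts every exon ratio by 0.076, which is under the tolerance of 0.1. Scaling mattered most, because milk protein genes set the total. With each mouse rescaled to a summed exon FPKM of 1000000, the summed adipocyte level was 1152, the median log2 exon ratio was −1.05 and 5 members were more than 2-fold apart, and 5 members changed sign. Rescaled without the 10 highest genes, the sum was 7558, a change of unit. With a pseudocount of 5, and with GC correction, 0 members were more than 2-fold apart. When genes had to average 5 exon FPKM or more, *Lep* was left out and the median log2 exon ratio was 0.076. The median log2 intron ratio was 0.15 with a pseudocount of 1 and 0.43 after a GC correction of introns, an alternative chosen after seeing the data, as was the limit of 0.5 intron FPKM, which gave 0.26. Leaving out each mouse gave a summed level from 1212.3 to 1386.6 FPKM and all 10 members at 1 FPKM or more. No ratio can be had from a single mouse. Depth is unknown, so levels near 0.1 FPKM cannot be told from rounding.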

Other observations

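Of 8 listed genes of brown fat, 2 had at least 1 FPKM in both mice, where 45.6% of all genes did. *Cox7a1* was highest (5.4 and 3.7 FPKM), and *Ucp1*, which encodes the uncoupling protein of brown fat, *Elovl3* and *Zic1* were listed at 0 in both mice. The list does not hold *Cidea*, which brown fat and the secretory epithelium both express and which had 1865.1 and 1483.9 FPKM. *Elovl3*, *Zic1* and *Cidea* were named here after their values were seen. Of 6 preadipocyte genes, 4 had at least 1 FPKM in both mice, from *Dpp4* (7.1 and 10.6 FPKM) down to *Dlk1* (0.1 and 0 FPKM), with a median log2 ratio of 0.21 that was 0.039 after GC correction. All 5 fibroblast genes did, and their median log2 ratio was −0.69 (−0.41 after GC correction). By mean, *Dcn* was highest (42.9 and 78.4 FPKM) and *Lum* lowest (11.1 and 18.6 FPKM), both higher in replicate 2. The 3 collagen genes, named after their values were seen, were lower in replicate 2, *Col1a1* with 23.5 and 11.2 FPKM, *Col1a2* with 20.5 and 10.2 FPKM and *Col3a1* with 71.2 and 43.6 FPKM.

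All 4 skeletal muscle genes had at least 1 FPKM in both mice and were lower in replicate 2, with a median log2 ratio of −1.12 (−0.69 after GC correction). They summed to 24.9 and 9.4 FPKM, from *Acta1* (8.4 and 3.7 FPKM) to *Tnnt3* (4.5 and 1.9 FPKM). Of 4 lymphocyte genes, 1 passed 1 FPKM in both mice, *Ptprc* (3.0 and 3.2 FPKM), and *Cd3e* was lowest (0 and 0.1 FPKM). All 6 luminal genes passed it, from *Elf5* (185.8 and 204.8 FPKM) to *Krt19* (10.9 and 4.0 FPKM), with a median log2 ratio of −0.66 (−0.37 after GC correction). Of 5 myoepithelial genes, 4 passed it, *Myh11* being highest (69.2 and 38.8 FPKM). The contractile gene *Acta2*, which myoepithelial cells normally express strongly, was listed at 0 in both mice, so a listed 0 need not mean that a gene was silent. Among milk protein genes, *Csn1s2a* was highest (168240 and 455483 FPKM) and *Lalba* lowest (8453.5 and 8265.4 FPKM).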
